A study of Mus musculus with 24 samples.

Results

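The cytosolic ribosomal protein genes were followed in cultured mouse fetal liver cells that carried a microRNA, miR-125b, or its control. They were taken as the protein-coding genes with symbols of the form Rpl or Rps followed by a number, with at most 1 closing letter a, x or l, plus Rplp0, Rplp1, Rplp2 and Rpsa, and were selected on their level, a mean of 10 or more CPM (the count scaled to a common library total) over the 24 libraries. The rule left 76 genes of the 47069 in the table, 45 of the large subunit and 31 of the small subunit. Of 80 protein-coding symbols with this form, Rpl24, Rpl39l, Rpl3l and Rpl10l fell below the threshold, at a mean of 1.01, 0.393, 0.0848 and 0 CPM, and 2 further matches were not protein-coding. The members nearest the threshold on the other side were Rpl23a at 75.2 CPM and Rpl35 at 169.5 CPM. Because the mean CPM chose the members, their overall level is a description here, without a test. All 76 passed the filter on low counts and were tested.

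Each ribosomal protein joins ribosomal RNA in the large or the small subunit of the ribosome, the particle that translates mRNA, and most are needed in equal numbers in every particle. Many of their mRNAs begin with a run of pyrimidines at the start site, a terminal oligopyrimidine tract, through which mTOR signalling and the binding protein LARP1 set how much of them is translated. In blood formation these genes are known for Diamond-Blackfan anaemia, in which 1 copy of a ribosomal protein gene such as RPS19 is lost, and for the loss of RPS14 in the 5q deletion of myelodysplastic syndrome. Reduced ribosome supply is also known to limit translation of the mRNA of GATA1, the blood transcription factor that the cells studied here carry in a shortened form.

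All libraries came from fetal liver cells of embryonic day 12.5 to 13.5 from a Rosa26 knock-in strain on the B6J.129(Cg) background with the allele CAG-cas9*,-EGFP, in which the broadly active CAG promoter drives Cas9 and a green fluorescent protein. Both arms had a first transgene with a guide RNA against Gata1 (sgGata1) and are labelled Gata1s for the short protein that lacks the amino-terminal part. The second transgene was miR-125b, a microRNA encoded on human chromosome 21, or the control insert miR-ctrl. Each arm was sampled after 48 h (day 2), 10 days and 13 days with 1 µg/mL doxycycline, and at day 13 after doxycycline had been withdrawn on day 10, with 3 libraries in each of the 8 groups. There was no group without doxycycline from the start and none without the Gata1 guide. The labels do not say whether the libraries of a group came from separate cultures, embryos or clones, so p-values measure only the spread between these libraries. Total counts ran from 14694900 to 23755245 per library.

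The defining megakaryocyte markers were present (13 of 13 above a mean of 1 CPM), and their summed level was 3754 to 8583 CPM per library. Erythroid markers summed to 283 to 657 CPM (8 of 12 above 1 CPM), mast cell and basophil markers to 47.3 to 406 CPM (9 of 9), granulocyte and macrophage markers to 26.0 to 113 CPM (4 of 11), lymphoid markers to 3.14 to 62.1 CPM (1 of 6), endothelial markers to 119 to 217 CPM (3 of 5) and fibroblast markers to 0.742 to 12.1 CPM (1 of 4). Stem and progenitor markers summed to 99.4 to 213 CPM (2 of 6). The markers of hepatoblasts, the liver cells of the source organ, summed to 1.40 to 4.48 CPM (1 of 6). Listed at 0 in every library were Slc4a1 among the erythroid markers, Hoxa9 and Mecom among those of progenitors, Ttr and Serpina1a of hepatoblasts, Emcn of endothelium and Dcn of fibroblasts. In all, 22382 of the 47069 genes were at 0 in every library, and whether each of them was counted is not given in the sources used here, so these zeros and the summed levels may understate a cell type. The ranges of these lists overlapped between the arms at every time except for granulocyte and macrophage markers, which were higher with miR-125b at day 2 (56.7 to 86.9 against 38.2 to 54.2 CPM), at day 10 (50.6 to 113 against 28.7 to 40.2) and after withdrawal (at least 56.6 against at most 50.1), and mast cell markers at day 2 (178 to 289 against 139 to 166). The part of these cells in the results below was not tested. In libraries of whole cultures, a change in the number of cells of a type and a change in RNA per cell cannot be told apart.

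To show how some of these genes begin, the sequence around a RefSeq start site (build GRCm38.p6, 40 bases before and 15 after) is given for Rps21, Rpl34 and Rpl35a, which rose with miR-125b between day 2 and day 10, for Rpl18 and Rpl28, which fell between day 10 and day 13, and for Rpl13a and Rps28, whose miR-125b effect differed between those days. All of these but Rps21 passed only in the fit with replicate numbers as a block. For the difference that called Rpl13a and Rps28, the share of members called was near that of all genes. The longest run of C and T within 25 bases of the start is in capitals. That of Rpl13a has 14 bases and goes on past the printed end.
Rps21 (chr2:180257339-180257393, plus strand): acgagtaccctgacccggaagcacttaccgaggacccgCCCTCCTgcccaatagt
Rpl34 (chr3:130730323-130730377, minus strand): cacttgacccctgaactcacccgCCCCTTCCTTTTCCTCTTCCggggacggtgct
Rpl35a (chr16:33056442-33056496, plus strand): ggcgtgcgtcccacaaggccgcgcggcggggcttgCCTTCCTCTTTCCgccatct
Rpl18 (chr7:45718031-45718085, plus strand): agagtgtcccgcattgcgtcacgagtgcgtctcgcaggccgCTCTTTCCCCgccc
Rpl28 (chr7:4792925-4792979, plus strand): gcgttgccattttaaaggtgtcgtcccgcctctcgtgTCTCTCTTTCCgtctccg
Rpl13a (chr7:45128731-45128785, minus strand): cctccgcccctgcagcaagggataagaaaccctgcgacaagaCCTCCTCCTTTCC
Rps28 (chr17:33824548-33824602, minus strand): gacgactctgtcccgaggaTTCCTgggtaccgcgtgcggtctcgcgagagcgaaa

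Of the 76 genes, 56 had a start-site sequence in the RefSeq table. A run of 8 or more C or T on the sense strand within 25 bases of an annotated start was found in 31 of the 56 (55.4%), against 22.3% of the 27025 genes in the table. In the 300 bases from 250 before to 50 after the start, on either strand, the ETS-family motif CCGGAAG was found in 42.9% of the matched members and 9.93% of all genes, and the GC box GGGCGG in 62.5% against 38.2%. The YY1 motif AAGATGGC was in 8.93% against 3.19%, and the E-box CACGTG in 10.7% against 8.09%. The TATA box TATAAA was in 10.7% of the members and 15.7% of all genes. No motif contains another, and a match shows letters in this window, not a bound factor. The examples above differ in their run: Rpl34 has 20 pyrimidines in a row, whereas the longest run at Rps28 is 5. For genes with several annotated starts the one with the longest run is shown. The other start of Rpl34 has a run of 8, the other starts of Rpl35a have runs of 4 and 5 beside the 13 shown, and the other start of Rps21 has a run of 5 beside 7. Which start these cells use was not tested.

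The transgene's own target sequence is short, and few of these genes hold it. The mature miR-125b, identical from its loci at chr9:41581940-41581961 and chr16:77646279-77646300 (both plus strand, RefSeq, GRCm38.p6), is given with its seed, bases 2 to 8, in capitals, above the only 3′ UTR stretches of members that hold the complementary letters CTCAGGG, in capitals (GENCODE M21 transcripts, GRCm38).
mmu-miR-125b-5p: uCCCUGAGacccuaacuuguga
Rps7 (chr12:28631051-28631072, minus strand): gtaacttgtcaaaatCTCAGGG
Rps3 (chr7:99477937-99477958, minus strand): ctggctggcctctgcCTCAGGG
Rps15a (chr7:118109057-118109078, minus strand): cctttgtggactgtgCTCAGGG
These 3 genes are 3.95% of the 76, whereas 15.9% of the 11659 tested genes with an annotated 3′ UTR held a match. The members' 3′ UTRs were short, with a median of 175 nt against 1145 nt, and per kilobase of 3′ UTR the matches were 0.0943 in members and 0.118 in all tested genes. For each gene the longest 3′ UTR among its annotated protein-coding transcripts was taken. That of Rpl9, 1955 nt, is thus longer than its principal mRNA of 738 nt. Which transcripts these cells use was not tested. None of the 3 passed the test for miR-125b against control. Averaged over the 4 conditions Rps7, which contacts the regulator of p53 as well as serving the small subunit, differed by -0.025 ± 0.050 (log2 fold change ± SE, edgeR adjusted p 0.918). By the same measure Rps3, which sits at the mRNA entry of the small subunit, differed by -0.0059 ± 0.060 (edgeR adjusted p 0.989) and Rps15a by -0.040 ± 0.051 (edgeR adjusted p 0.861). Averages can hide opposite signs: Rps15a differed by 0.16 at day 2 and -0.15 at day 13 with continued doxycycline.

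The members lie on 19 chromosomes, with 14 on chromosome 7 and 4 on chromosome X. Their mRNAs had a median length of 882 nt, against 2960 nt for the tested genes with an annotated length, and ran from 345 to 5179 nt. Introns or exons of 29 members held 56 of the 1558 annotated small nucleolar and Cajal-body RNA genes (snoRNAs and scaRNAs), RNAs that guide the modification of ribosomal RNA. The table also listed 273 pseudogenes of ribosomal proteins, 157 of them with a count, which took 0.0141% to 0.0333% of a library's counts. How reads that match a gene and its processed copies were counted is not given in the sources used here, so the level of any single member is uncertain to that extent.

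Scaled to length, the level differed widely at the ends and little in the middle. Per kilobase of merged exons, the highest mean levels over the 24 libraries were those of Rplp1, a protein of the acidic stalk that recruits elongation factors, at 4415 CPM per kb, Rpl36 at 3089 and Rps2 at 2556. The lowest were Rpl23a, near the exit tunnel of the large subunit, at 88.8, Rpl35 at 137 and Rps15a at 174 CPM per kb; the last has a long annotated 3′ UTR of 4728 nt. Per kilobase of each gene's principal mRNA, 61 of the 76 lay within 2-fold of the median of 1769 CPM per kb, and the highest was 32.9 times the lowest.

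The 76 genes together took 10.7% to 14.1% of a library's counts. At day 2 their share was 11.9%, 11.6% and 13.8% in the 3 miR-125b libraries and 11.6%, 12.02% and 11.2% in the control libraries. Replicate 3 of miR-125b stood apart from the other 5, which overlapped. At day 10 it was 14.1%, 12.2% and 13.2% with miR-125b and 13.2%, 12.9% and 12.5% with the control, again overlapping. At day 13 with continued doxycycline the share was 12.1%, 10.7% and 12.5% with miR-125b and 12.9%, 12.3% and 13.0% with the control. After withdrawal it was 12.3%, 11.4% and 11.4% with miR-125b and 13.1%, 12.4% and 12.6% with the control, so every control library lay above every miR-125b library there. Between libraries with the same replicate number, the miR-125b share was lower in 3 of 3 pairs at day 13 and 3 of 3 after withdrawal, and higher in 2 of 3 at day 2 and at day 10. As means, the share was 12.4% ± 1.22 and 11.6% ± 0.400 at day 2, 13.2% ± 0.986 and 12.9% ± 0.381 at day 10, 11.8% ± 0.968 and 12.8% ± 0.391 at day 13, and 11.7% ± 0.473 and 12.7% ± 0.389 after withdrawal (miR-125b and control, SD, n = 3 each). The control arm thus had its lowest share at day 2, below each of its 9 later libraries, and the miR-125b arm its highest mean at day 10.

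Replicate 1 of the control after withdrawal had 3.07% of its counts on the mitochondrial genome, against 1.16% to 1.81% in the other 23 libraries, and the lowest TMM scaling factor, 0.932. Without this library, the number of members at an unadjusted p under 0.05 (edgeR) changed for differences of the miR-125b effect between conditions. For withdrawal against day 2 there were 12 instead of 34 (6.34% and 3.57% of all tested genes). For withdrawal against day 10 there were 4 instead of 11 (16.9% and 12.1%), and against day 13 there were 4 instead of 1 (2.25% and 1.68%). Why this library differs was not tested. The other 2 withdrawn control libraries also lay above the miR-125b libraries in their share. Rpl3 stood at 3633, 2221 and 2433 CPM in the 3 withdrawn control libraries, with replicate 1 the highest. The large-subunit genes took 6.16% to 8.05% of a library's counts and the small-subunit genes 4.51% to 6.08%.

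**Figure D1:**
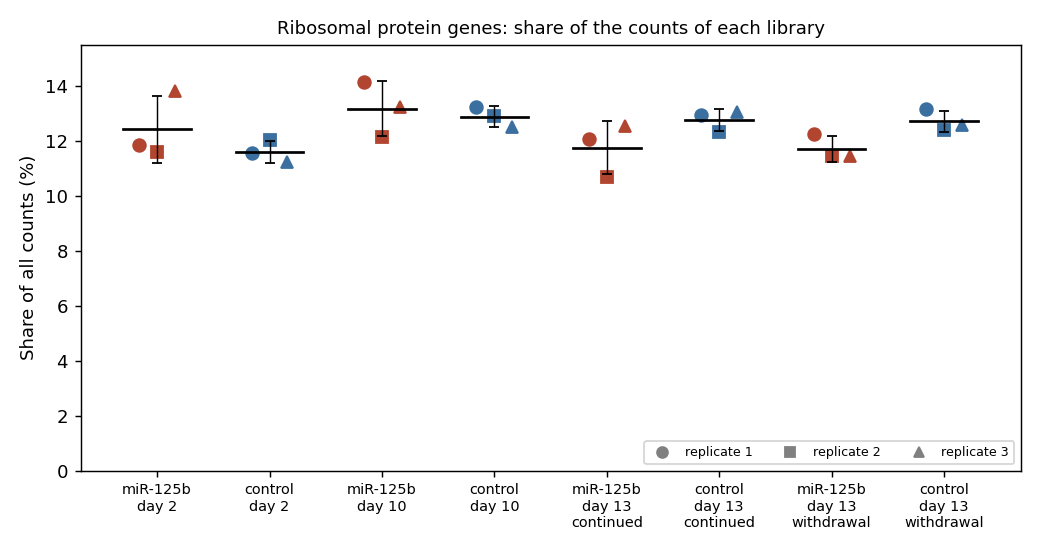
Percent of each library's counts held by the 76 genes (y axis), for the 8 groups (x axis); each point is a library, each line the mean of 3 and each error bar the SD. The 3 withdrawn control libraries (12.4% to 13.1%) sit above the 3 withdrawn miR-125b libraries (11.4% to 12.3%), and day 2 replicate 3 of miR-125b stands at 13.8%.

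Between day 2 and day 10 the comparison asks how the genes moved over the time of culture with doxycycline. With miR-125b, 2 of 76 members rose and none fell (edgeR adjusted p under 0.05), where 0.224% of the 13419 tested genes were called. With replicate numbers as a block 6 rose, where 4.08% of all genes were called. The median log2 fold change of the members was 0.070, with 55 above 0 (52.7% of all tested genes were above 0), beside 0.018 over all tested genes. Without day 2 replicate 3 of miR-125b the members' median was 0.20 and 4 were called. Without day 10 replicate 2 there were 5, and without day 2 replicate 1 or replicate 2, without day 10 replicate 1 or replicate 3, or with these 2 groups fitted alone, 0 were called. The share of all genes called in these fits is not given here.

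Rps21, a small-subunit protein with one of the shortest of these mRNAs (394 nt; ENSMUSG00000039001, chr2:180257377-180258445, plus strand, 6 exons), stood at 489, 489.8 and 688 CPM (TMM-normalised, as for all levels of single genes below) at day 2 and 1081, 917 and 896 CPM at day 10 with miR-125b. Every day 10 library was above every day 2 library, the nearest being replicate 3 of day 2. The difference was 0.80 ± 0.14 on the log2 scale (SE; edgeR adjusted p 0.0219). With the control Rps21 stood at 673, 621 and 517 CPM at day 2 and 982, 861 and 732 CPM at day 10, a difference of 0.51 ± 0.14 that did not pass (edgeR adjusted p 0.316); these groups did not overlap either. The difference between the arms' changes was 0.29 ± 0.20 (edgeR adjusted p 0.795).

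Rpl30, a large-subunit protein known in yeast to bind and restrain its own transcript (chr15:34440505-34443640, minus strand, ENSMUSG00000058600), had 867, 885 and 1145 CPM at day 2 and 1514, 1305 and 1484 CPM at day 10 with miR-125b. All day 10 values exceeded all day 2 values, and the difference was 0.57 ± 0.12 (edgeR adjusted p 0.0419). With the control it had 1157, 912 and 831 CPM and then 1348, 1274 and 1239 CPM, a difference of 0.41 ± 0.12 (edgeR adjusted p 0.327). Among the genes called with the block alone were Rpl35a (0.51, adjusted p 0.0162), Rps14 (0.44, 0.0313) and Rpl34 (0.36, 0.0458), edgeR adjusted p values from the blocked fit.

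The members did not all go the same way. The most negative log2 fold changes from day 2 to day 10 with miR-125b were those of Rpl23a at -0.50 ± 0.17, of Rpl19, a protein of the bridge between the subunits, at -0.45 ± 0.14, and of Rpl35 at -0.25 ± 0.13. None of these 3 passed (edgeR adjusted p 0.181, 0.122 and 0.386). Rpl23a and Rpl35 are also the members with the lowest levels. Rpl19 stood at 383, 383 and 457 CPM at day 2 and 327, 281 and 287 CPM at day 10. Its groups did not overlap, with the day 10 libraries below those of day 2.

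In the control arm none of the 76 passed at day 10 against day 2 (edgeR), where 0% of all genes were called. At an unadjusted p under 0.05 there were 28 members higher and 0 lower, where 4.38% of all genes were higher, and DESeq2 called 6, all higher, where it called 0.328% of all genes. The members' median was 0.18, with 71 above 0, beside -0.0044 and 49.1% above 0 over all tested genes. In 49 members every day 10 control library was above every day 2 control library, a pattern found in 7.71% of all tested genes, and in 1 member, Rpl35, every one was below, as in 6.86% of all tested genes. The members move together within a library: subtracting each library's member median lowered their median within-group SD from 0.13 to 0.068. The 49 are therefore not 49 separate observations. The largest log2 fold changes were those of Rpl27 (0.52 ± 0.13), Rps27, which carries a zinc finger (0.51 ± 0.17), and Rps21, and the lowest those of Rpl19 (-0.22 ± 0.14), Rpl35 (-0.15 ± 0.13) and Rpl23a (-0.13 ± 0.17). Rpl27 had 1812, 1487 and 1254 CPM at day 2 and 2167, 2192 and 2148 CPM at day 10 (edgeR adjusted p 0.280). The same 3 genes thus had the lowest log2 fold changes in both arms. The arms share no library, but libraries with the same replicate number correlated across groups (0.16 to 0.78). All 3 genes had low mean levels among the members: 75.2 CPM for Rpl23a, 169.5 for Rpl35 and 328 for Rpl19.

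**Figure D2:**
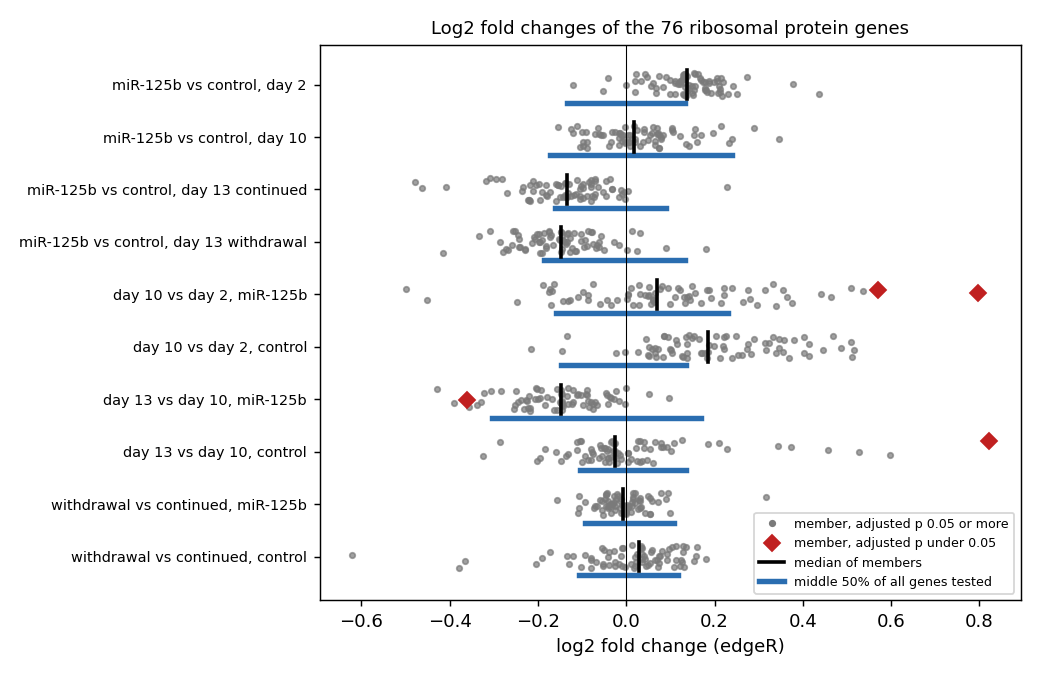
Log2 fold change of each of the 76 genes (points) in each comparison, with the members' median as a black line and the interquartile range of all tested genes as a blue bar; red diamonds passed an edgeR adjusted p under 0.05. Points for the control arm at day 10 against day 2 lie mostly above 0 (71 of 76), and those for day 13 against day 10 with miR-125b mostly below 0 (74 of 76).

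From day 10 to day 13 with continued doxycycline most members lay lower in the miR-125b arm. Of 76 members 74 had a log2 fold change below 0 and the median was -0.15, beside -0.029 and 46.4% above 0 over all tested genes. 1 member fell past the threshold (edgeR), where 3.53% of all genes were called, and 7 fell with replicate numbers as a block, where 13.4% were called. As shares of the 76, both counts lie below those of all genes. Every day 13 library was below every day 10 library in 10 members, a pattern found in 12.7% of all tested genes, so that count is near the background. The call depended on the libraries: 0 members passed without any 1 of the 3 day 13 libraries, without day 10 replicate 1 or replicate 3, or with these groups fitted alone, and 7 passed without day 10 replicate 2. How many of all genes passed in those fits is not given here. The day 10 libraries with miR-125b are those of the comparison with day 2.

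Rps14, the gene of the 5q deletion, had 2772, 2235 and 2573 CPM at day 10 and 1992, 1567 and 2069 CPM at day 13 with miR-125b. These groups did not overlap, and the difference of -0.43 ± 0.12 had an edgeR adjusted p of 0.0537, and 0.0147 with the block.

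Rps19, the gene most often mutated in Diamond-Blackfan anaemia, had 2305, 1835 and 2123 CPM at day 10 and 1668, 1303 and 1808 CPM at day 13 with miR-125b, with all day 13 values lower. Its difference was -0.39 ± 0.12 (edgeR adjusted p 0.0622, 0.0225 with the block). Further members that fell in the blocked edgeR fit were Rpl18 (-0.36, adjusted p 0.0255), Rps16 (-0.34, 0.0349), Rpl28 (-0.32, 0.0387) and Rpl21 (-0.31, 0.0317). Both subunits were thus among them. The members above 0 were Rpl39 (0.097 ± 0.20) and Rps29 (0.052 ± 0.13), neither past the threshold.

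From day 10 to day 13 in the control arm the members' median was -0.026, with 32 above 0, beside 0.0090 and 52.2% above 0 over all tested genes. Rps29, a zinc-binding protein of the small subunit with an mRNA of 390 nt (ENSMUSG00000034892, chr12:69157722-69159186, minus strand), was the only member to pass, where 0.0224% of all genes were called (edgeR). It had 652, 594 and 473 CPM at day 10 and 1111, 875 and 1051 CPM at day 13 in the control, so that every day 13 library was higher. The difference was 0.82 ± 0.13 (edgeR adjusted p 0.0244). With miR-125b it had 761, 671 and 671 CPM and 666, 701 and 813 CPM, which overlapped. The call for Rps29 in the control was lost without control day 10 replicate 2 or replicate 3, without control day 13 replicate 1 or replicate 3, and with the 2 groups fitted alone (edgeR adjusted p 0.540), while its log2 fold change stayed between 0.70 and 0.92 as each library was left out. Rps28 and Rpl38, further members with short mRNAs, differed by 0.60 ± 0.14 and 0.53 ± 0.13 in the control arm and did not pass (edgeR adjusted p 0.380 and 0.385). At the other end were Rpl27 (-0.32 ± 0.13), Rpl39 and Rpl31.

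**Figure D3:**
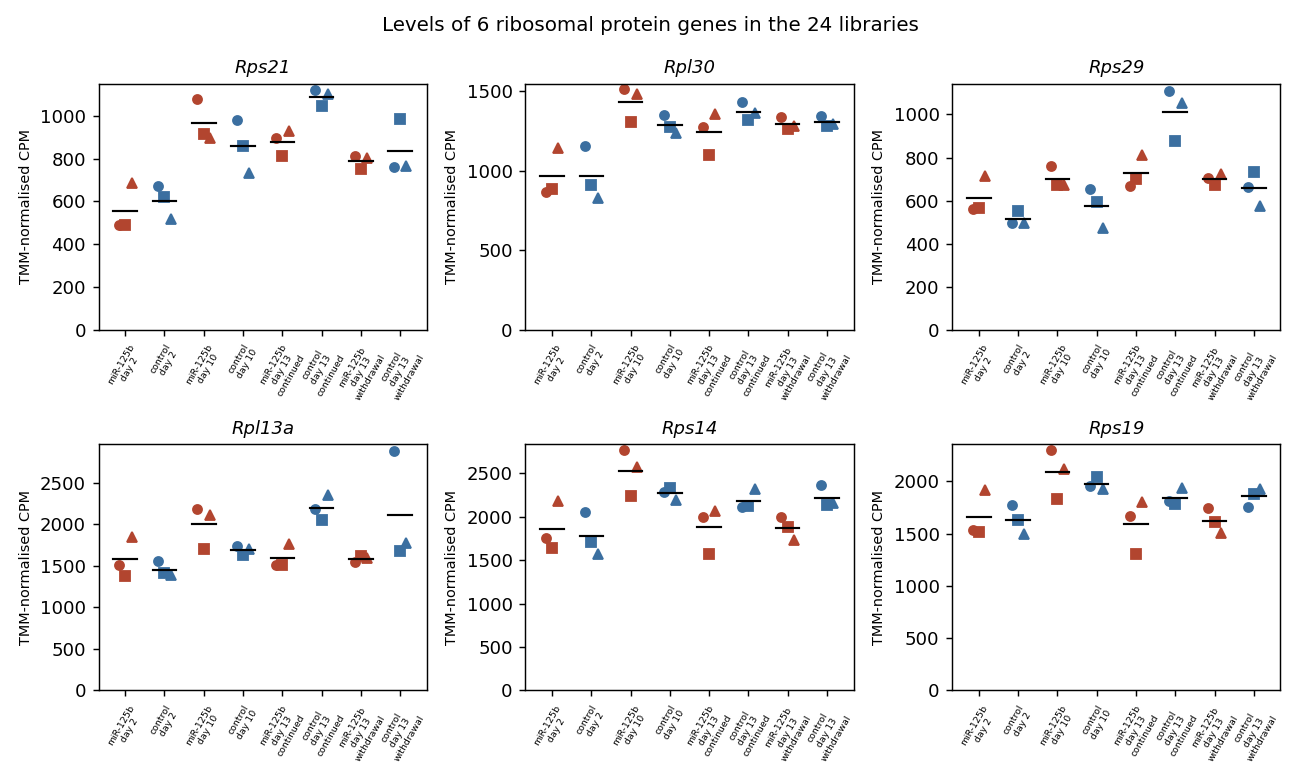
TMM-normalised CPM (y axis) of Rps21, Rpl30, Rps29, Rpl13a, Rps14 and Rps19 in the 8 groups (x axis); each point is a library and each line a mean of 3. Rps21 and Rpl30 are lowest at day 2, and Rps29 is highest in the day 13 control libraries with continued doxycycline (875 to 1111 CPM).

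Some of the genes that build the ribosome rose in the miR-125b arm between day 10 and day 13. Of 59 tested genes for ribosome biogenesis (the RNA polymerase I machinery, nucleolar proteins and assembly factors) 15 rose and none fell, where 2.18% of all tested genes rose (edgeR). Their median was 0.39, with 54 of 59 above 0 (46.4% of all tested genes were), beside the members' median of -0.15. How the 15 calls depend on single libraries is not given here. Noc3l, a nucleolar factor for assembly of the large subunit, went from 27.7 ± 1.62 to 47.4 ± 1.03 CPM (mean ± SD, n = 3), a difference of 0.77 ± 0.17 (edgeR adjusted p 0.0254). Ddx21, a nucleolar helicase, went from 279.9 ± 66.1 to 448 ± 17.3 CPM (0.68 ± 0.16, edgeR adjusted p 0.0306), and Ltv1, an export factor of the small subunit, from 53.8 ± 10.6 to 76.3 ± 2.87 CPM (0.50 ± 0.11, edgeR adjusted p 0.0223). The others that rose were Rrp12, Tsr1, Nop2, Utp15, Gnl3, Nolc1, Nat10, Wdr75, Wdr43, Nop58, Bop1 and Brix1, by 0.43 to 0.75. In the control arm the list's median was -0.10, and 0 of 59 passed (edgeR; 0 higher and 2 lower at an unadjusted p under 0.05, where 1.71% of all tested genes were higher and 1.80% lower).

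At day 10 the same list lay lower with miR-125b than with the control, with a median of -0.36 and 3 of 59 above 0, where 50.6% of all tested genes were. Ltv1 was the only one to pass there (-0.45 ± 0.11, edgeR adjusted p 0.0471), where 0.872% of all tested genes passed, and 18 passed with the block, all lower, where 3.89% of all tested genes were called lower. The day 10 miR-125b libraries enter both of these comparisons. Myc, a transcription factor known to drive ribosome production, stood at 153 ± 28.4 CPM with miR-125b and 214 ± 40.6 CPM with the control at day 10 (-0.48 ± 0.14, edgeR adjusted p 0.0957, 0.0261 with the block). Of the 16 genes of translation control, 3 rose from day 10 to day 13 with miR-125b, where 2.18% of all tested genes rose: Larp4 (0.49 ± 0.11), which binds mRNA near the poly(A) tail, Eif4ebp2 (0.51 ± 0.13), an inhibitor of cap-dependent initiation, and Eif4e (0.24 ± 0.063), the cap-binding factor it inhibits (edgeR adjusted p 0.0277, 0.0346 and 0.0410).

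The study's main question is what miR-125b does in these cells, and for the ribosomal protein genes the tests called nothing. At day 2, day 10, day 13 and after withdrawal, 0 of 76 members passed (edgeR), where 0%, 0.872%, 0% and 0.119% of all tested genes were called. With the block or with DESeq2, 0 members passed either. At day 10 the block called 3.89% of all tested genes lower, and the other shares of these 2 fits are not given here. Averaged over the 4 conditions 0 passed without the block as well (edgeR), where 1.28% of all genes did. At an unadjusted p under 0.05, 4 members were higher at day 2 (2.12% of all tested genes were), 2 were higher at day 10 (8.41%), 14 were lower at day 13 (1.62%) and 14 were lower after withdrawal (4.52%), with none in the other direction, and 2 were lower on average (6.19%). The members' medians were 0.14, 0.018, -0.13 and -0.15 in the 4 conditions and -0.028 on average, with 72, 45, 2, 6 and 17 of 76 above 0, beside 50.9%, 50.6%, 46.2%, 47.7% and 46.6% of all tested genes. The medians over all tested genes lay between -0.016 and 0.0042. The median SE of a member was 0.11 in a single condition and 0.055 for the average.

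Without replicate 3 of miR-125b, which had the high share given above, the day 2 median was 0.012. At day 2 the highest members were Rpl23a (0.44 ± 0.17), Rpl19 (0.38 ± 0.14) and Rps28 (0.27 ± 0.14), and among the lowest were Rps21 (-0.12 ± 0.14) and Rpl31 (-0.041 ± 0.15). In 8 members every miR-125b library was higher at day 2, where 6.09% of all genes had this. Rpl23a had 87.4, 100.04 and 107 CPM with miR-125b and 60.5, 75.7 and 81.6 CPM with the control, without overlap (edgeR adjusted p 0.906). At day 10 the highest were Rps28 (0.34 ± 0.14), Rps29 (0.29 ± 0.13) and Rpl13a (0.24 ± 0.15), and the lowest Rpl39 (-0.15 ± 0.20), Rpsa (-0.13 ± 0.12) and Rplp1 (-0.12 ± 0.10). Rps28 had the lowest edgeR adjusted p among members at day 10, 0.214.

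At day 13 with continued doxycycline every miR-125b library was below every control library in 23 members, where 4.12% of all tested genes had this, and after withdrawal in 31 members, where 5.62% had it. Members move together within a library, so these counts do not stand for separate observations. Rps29 was lowest at day 13 (-0.48 ± 0.13, 95% interval -0.75 to -0.21; edgeR adjusted p 0.999), with 666, 701 and 813 CPM against 1111, 875 and 1051 CPM. These groups did not overlap. Rpl13a, known outside the ribosome as part of a complex that silences interferon-response mRNAs, had 1507, 1508 and 1757 CPM with miR-125b and 2181, 2045 and 2346 CPM with the control at day 13 (-0.46 ± 0.15), and Rps28 differed by -0.41 ± 0.14. Neither passed (edgeR adjusted p 0.999 and 0.999). The highest were Rpl39 (0.23 ± 0.20), Rps12 (0.0039 ± 0.10) and Rpl15 (-0.0034 ± 0.083), where Rpl15 turned to 0.0051 with library totals.

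After withdrawal Rpl13a was lowest (-0.42 ± 0.15), at 1548, 1617 and 1588 CPM with miR-125b and 2884, 1678 and 1776 CPM with the control. The highest of these, control replicate 1, is the library with the high mitochondrial share, and the other control libraries also lay above those of miR-125b. Rpl32 (-0.33 ± 0.11) followed. The highest were Rps27l (0.18 ± 0.11), Rps29 (0.090 ± 0.13) and Rpl35 (0.030 ± 0.13). None of these 5 passed, with edgeR adjusted p values from 0.349 to 0.974. Averaged over the 4 conditions the ends of the range included Rpl13a (-0.13 ± 0.077) and Rpl14 (-0.11 ± 0.040) below, and Rps27l (0.10 ± 0.053), Rpl39 (0.052 ± 0.10) and Rpl23a (0.047 ± 0.086) above. Rpl14 had the lowest edgeR adjusted p among members, 0.211.

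**Figure D4:**
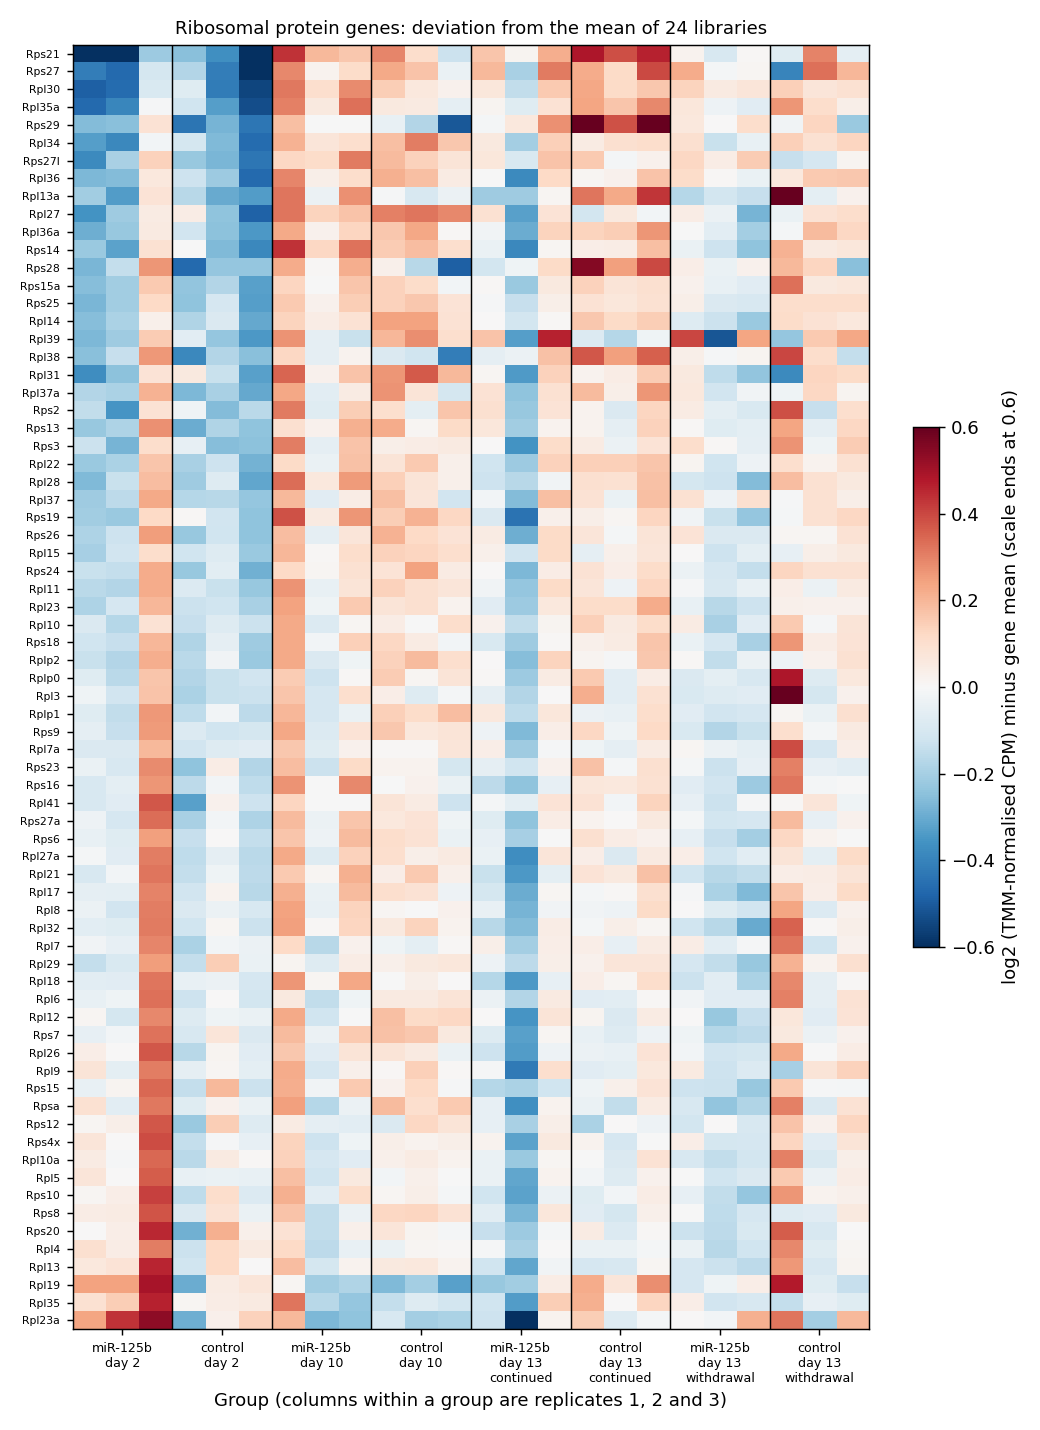
Deviation of each member's log2 TMM-normalised CPM from its mean over the 24 libraries (colour scale, ending at 0.6 on both sides) for 72 of the 76 genes (rows) and 24 libraries (columns, by group). Most rows change colour together within a library, such as day 2 replicate 3 and day 10 replicate 1 of miR-125b, which are high, and day 13 replicate 2, which is low; Rpl13a, Rpl3 and Rplp0 stand out in replicate 1 of the withdrawn control.

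Whether the miR-125b effect differed between conditions was tested for all 6 pairs of conditions. Without the block 0 members passed in any pair (edgeR), and the counts at an unadjusted p under 0.05 were 24 for day 13 against day 2 (4.73% of all tested genes), 34 for withdrawal against day 2 (3.57%), 14 for day 13 against day 10 (14.6%), 11 for withdrawal against day 10 (12.1%), 1 for withdrawal against day 13 (1.68%) and 0 for day 10 against day 2 (6.86%). For day 13 and withdrawal against day 10 the members' count is thus near the share of all genes. The members' medians of the difference were -0.27, -0.30, -0.14, -0.17, -0.024 and -0.13 in the same order. Of all tested genes 0.0224% were called for day 13 against day 10 and 0% in the other 5 pairs. With replicate numbers as a block 3 members passed for day 13 against day 10, where 3.85% of all genes did: Rps29 (-0.77 ± 0.18, edgeR adjusted p 0.0266, 0.0906 without the block), Rps28 (-0.75 ± 0.20, 0.0441 and 0.110) and Rpl13a (-0.69 ± 0.19, 0.0453 and 0.143). As a share of the members, this count is also near that of all genes. Without day 2 replicate 3 of miR-125b the median was 0.0028 for day 10 against day 2, -0.13 for day 13 against day 2, with 6 members at an unadjusted p under 0.05, and -0.16 for withdrawal against day 2, with 7. As any other library was left out, those counts ran from 8 (without day 13 replicate 2 of miR-125b) to 37 for day 13 against day 2 and from 12 (without replicate 1 of the withdrawn control) to 45 for withdrawal against day 2. For day 13 against day 10, 2 members passed without the block when day 10 replicate 2 of miR-125b was left out, and the median was -0.042 without day 13 replicate 2 of miR-125b.

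Withdrawal of doxycycline on day 10 was set against continued doxycycline at day 13 within each arm. With miR-125b, 0 of 76 members passed (edgeR and DESeq2; 0 at an unadjusted p under 0.05, where 1.08% of all tested genes were higher and 1.13% lower), where 0% of all tested genes were called by edgeR. The median was -0.0065, with 30 above 0, beside 50.7% of all tested genes. The largest value was that of Rpl23a, 0.32 ± 0.17 (95% interval -0.048 to 0.68). In the control arm 0 of 76 passed as well (edgeR; 3 lower at an unadjusted p under 0.05, as were 1.51% of all genes, and 1 lower with DESeq2, which called 0.0596% of all genes), again beside 0% of all genes with edgeR. The median was 0.028, with 45 above 0, beside 52.1% of all tested genes. Rps29 was lowest there, with 662, 735 and 577 CPM after withdrawal against 1111, 875 and 1051 CPM with continued doxycycline (-0.62 ± 0.13, edgeR adjusted p 0.285), followed by Rps21 (-0.38 ± 0.14) and Rps28 (-0.37 ± 0.14). These are the control libraries in which Rps29 was high at day 13, as described for day 13 against day 10.

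Of the 12 members whose human counterparts are mutated in Diamond-Blackfan anaemia (such as Rps19, Rpl5, Rpl11 and Rps29), the one to change in any comparison without the block was Rps29 in the control arm. Their medians followed those of all 76: 0.16, 0.018, -0.12 and -0.14 for miR-125b against control at day 2, at day 10, at day 13 and after withdrawal. From day 2 to day 10 in the control arm all 12 were above 0, with a median of 0.26, and in 8 of them the groups did not overlap, beside 49 of all 76 members and 7.71% of all tested genes. Rpl5 and Rpl11, which together with 5S ribosomal RNA hold back the p53 regulator MDM2, are given here for both arms. Rpl5 had 1882 ± 254 and 1639 ± 3.56 CPM at day 2 and 1611 ± 66.9 and 1759 ± 119 CPM after withdrawal (miR-125b and control, mean ± SD, n = 3). Rpl11 had 1515 ± 247 and 1393 ± 69.4 CPM at day 2 and 1491 ± 48.0 and 1563 ± 50.1 CPM after withdrawal. In each of these pairs the difference between the arms was not past the threshold, with log2 fold changes of 0.20 and -0.13 for Rpl5 and 0.12 and -0.068 for Rpl11. At day 2 every miR-125b library had more Rpl5 than every control library, while the groups overlapped for Rpl11. Rpl15 had the second smallest spread within groups of all members, an SD of 0.090 on the log2 scale.

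For further Diamond-Blackfan genes, averaged over the 4 conditions the miR-125b effect was -0.0068 ± 0.054 for Rps26, -0.053 ± 0.049 for Rps24, -0.028 ± 0.057 for Rpl35a, -0.027 ± 0.055 for Rps10 and -0.021 ± 0.050 for Rpl26. None had an edgeR adjusted p below 0.767. Rps14 differed by -0.061 ± 0.061 (edgeR adjusted p 0.792). For some genes these averages join conditions of opposite sign. Rpl35a differed by 0.21 at day 10 and by -0.22 at day 13 with continued doxycycline. For Rps14 the values were 0.15 and -0.22, and none of these passed.

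The stalk of the large subunit is built by Rplp0, its base, and by Rplp1 and Rplp2. Rplp0 ran from 3216 to 5228 CPM, Rplp1 from 1971 to 2637 and Rplp2 from 1227 to 1715 over the 24 libraries. The highest value of Rplp0 belongs to control replicate 1 after withdrawal. Averaged over the conditions the miR-125b effect was -0.073 ± 0.060, -0.030 ± 0.050 and -0.042 ± 0.055. Rpsa, a small-subunit protein also known as a laminin receptor, ran from 3065 to 4920.1 CPM and differed by -0.083 ± 0.061. All 4 had intervals that include 0, with edgeR adjusted p values of 0.724, 0.900, 0.864 and 0.680. At day 2 the same 4 genes differed by 0.13, 0.13, 0.11 and 0.15, and at day 10 by -0.064, -0.12, -0.10 and -0.13. Each average thus joins conditions of opposite sign.

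Among the paralogues whose symbols fit the rule and end in l, Rps27l was the only one above the CPM threshold. Paralogues that the rule leaves out, such as Rpl22l1, are among the other genes below. Rps27l, known as a p53 target, stood at 354, 335 and 362 CPM with miR-125b and 295, 303 and 329 CPM with the control after withdrawal. It was the 1 member of the 76 in which all miR-125b libraries were above all control libraries there, a pattern found in 5.77% of all tested genes, and its difference did not pass (edgeR adjusted p 0.672). Its parent Rps27 had 952, 809 and 822 CPM and 619, 1026 and 935 CPM in the same libraries, which overlapped (0.0013 ± 0.17). Rpl3l, Rpl10l and Rpl39l, which are known from muscle and testis, stood at 0.0848, 0 and 0.393 CPM, against a mean of 2402 CPM for Rpl3, 2064 for Rpl10 and 791 for Rpl39.

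Within groups the members varied about as much as other abundant genes: the median within-group SD was 0.13 on the log2 scale, beside 0.14 for the 569 other tested genes with a mean log2 CPM of 8 or more. After subtraction of each library's median over the members it was 0.068. The most variable was Rpl39, a small protein of the exit tunnel, with an SD of 0.27. After withdrawal Rpl39 had 1029, 547 and 918 CPM with miR-125b and 665, 871 and 916 CPM with the control, and replicate 2 of miR-125b was the lowest of all 24 libraries. Rpl14 varied least, with an SD of 0.083. The group with the highest mean was control day 10 for 19 members, miR-125b day 10 for 18, miR-125b day 2 for 15, control day 13 for 14 and control after withdrawal for 10. The lowest was control day 2 for 43 members, miR-125b day 13 for 16 and miR-125b after withdrawal for 11.

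Several of the genes named above have short mRNAs, so the 10 with an mRNA under 500 nt were set beside the 61 other tested genes that short. From day 2 to day 10 with miR-125b the medians were 0.25 for the short members, 0.26 for the short genes that are not members and 0.058 for the other 66 members. In the control arm they were 0.34, 0.15 and 0.18. For miR-125b against control at day 13 they were -0.19, -0.18 and -0.13, and for withdrawal in the control arm -0.15, -0.14 and 0.036. Short genes outside the ribosome thus had medians of the same sign as the short members in these 4 comparisons. From day 10 to day 13 in the control arm the medians in the same order were 0.086, 0.031 and -0.026. Rps29, Rps28 and Rpl38, the members with the highest values there, differed by 0.82, 0.60 and 0.53. The spread of the other short genes is not given here. The signs differed for withdrawal with miR-125b (-0.038 for the short members and 0.030 for the other short genes) and for the difference between the arms' changes from day 2 to day 10 (-0.069 and 0.053). For miR-125b against control after withdrawal the short members' median was -0.095, nearer to 0 than the -0.15 of the other 66. The part of transcript length in the results for Rps21, Rps29, Rps28 and Rpl38 was not tested.

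**Figure D5:**
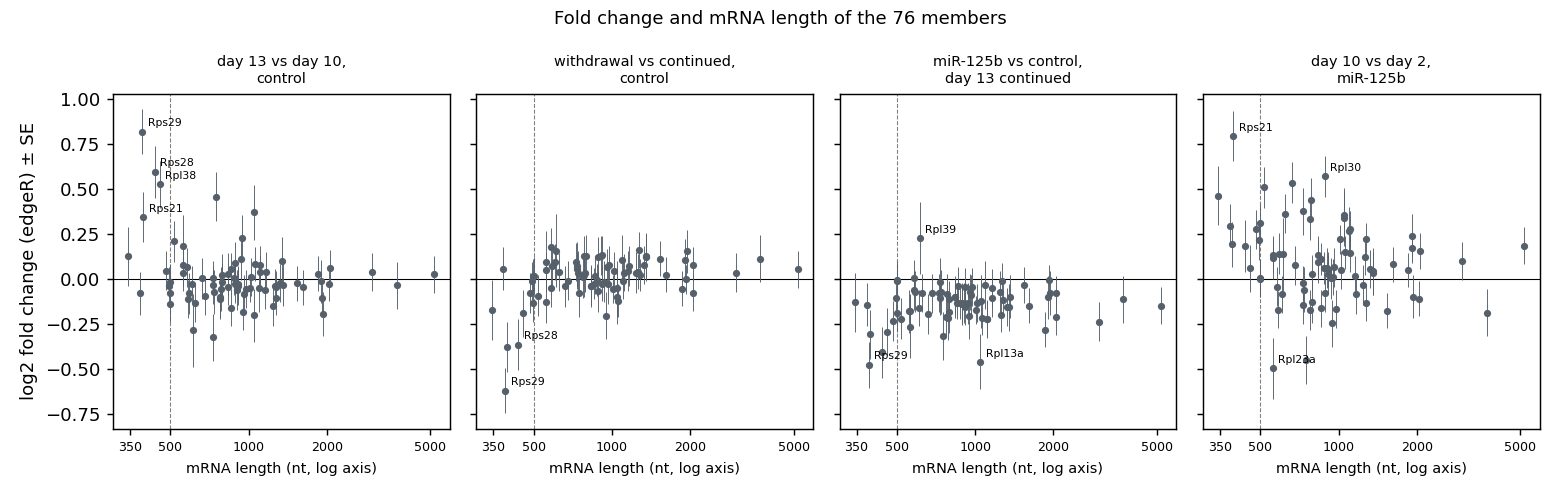
Log2 fold change (y axis) against mRNA length in nt (log x axis) for the 76 genes in 4 comparisons; each point is a gene with its SE, and the dashed line marks 500 nt. Genes under 500 nt have a median of 0.25 from day 2 to day 10 with miR-125b, against 0.058 for longer members.

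Other translation genes that the symbol rule leaves out gave a partly different picture. Of 8 ribosomal protein genes with other names (such as Fau, Rps3a1, Rack1 and Rpl22l1) none was called in any comparison without the block. Their medians were 0.066, 0.025, -0.15 and -0.068 for miR-125b against control at day 2, at day 10, at day 13 and after withdrawal. The 21 translation factors and other genes with terminal oligopyrimidine mRNAs had medians of 0.15, 0.0043, -0.0080 and -0.077 in the same comparisons. Nap1l1, a histone chaperone, was higher with miR-125b on average (0.17 ± 0.036, edgeR adjusted p 0.0231) and was the only one of these 21 called. From day 10 to day 13 with miR-125b their median was -0.0019, beside -0.15 for the members. Of 8 tested snoRNA host genes none was called; after withdrawal in the control arm their median was -0.52, and their summed level ran from 217 to 646 CPM in those 3 libraries.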

How the data were processed

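RNA sequencing counts were analysed for the 24 libraries. The authors deposited unnormalised read counts by gene, as whole numbers, with 1 column for each library. Per the submitters' processing notes, fastp, HISAT2 2.0.5 and featureCounts were used with the build mm10; their settings, the strand setting and the treatment of reads with several matches are not given in the sources used here. Of 47069 gene identifiers 46488 matched GENCODE M21 (GRCm38), and unmatched ones held at most 0.0638% of a library's counts.

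The members, gene lists and comparisons were chosen with earlier results of these data known. Genes were kept with filterByExpr, which left 13419, scaled by TMM and tested with edgeR 4.0.16 (R 4.3.3), using 1 quasi-likelihood model over all 24 libraries with a mean for each of the 8 groups and 16 residual degrees of freedom. Of the 13 contrasts each was adjusted by the Benjamini-Hochberg method over all 13419 genes, two-sided, and an adjusted p under 0.05 was called. The procedure was tested on simulated data. SE was derived from the F statistic, and intervals are 95%. Named genes were those called, the 3 highest and lowest by level per kb or by log2 fold change for miR-125b and for day 10 against day 2, those beside the threshold, the paralogues, the Diamond-Blackfan list, the stalk genes and Rpsa. Further genes in a figure, a blocked call or an example were chosen after their values were seen. A few genes that fall under this rule are not reported here by name; they stay in all counts and medians.

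The labels number the replicates 1 to 3 in every group without saying what a number shares. Deviations from the group means of libraries with the same number correlated above 0.1 in 84 of 84 pairs (0.16 to 0.78). The numbers were therefore taken to pair the libraries, from the data alone. Libraries with different numbers had a median of -0.30, which follows from the positive values, because deviations from a group mean sum to 0. A fit with the number as a block (14 residual degrees of freedom) is given where it changed a call. Replicates of a group differed by 11.1 to 103 in chi-square per degree of freedom, so none agreed within sampling noise. Alternatives were DESeq2 1.42.0, other scalings, no filter, the compared groups alone, leaving out each library and, chosen after seeing the data, a newer quasi-likelihood estimate, only members with longer mRNAs, and each library left out of the differences between conditions.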

Additional observations from a re-analysis of the deposited data

How the results depend on the processing

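The count of members called was 0 under every alternative run for miR-125b against control in the 4 conditions and on average, for withdrawal with miR-125b, and for the differences of the miR-125b effect between withdrawal and continued doxycycline and between day 10 and day 2. The difference between day 13 and day 10 had 3 members called with the replicate block and 2 without day 10 replicate 2 of miR-125b, against 0. With the block 3.85% of all genes were called for this difference, a share near that of the members. For day 10 against day 2 with miR-125b the main count of 2 became 4 with library totals, 1 without the filter, 4 with the newer quasi-likelihood estimate, 6 with DESeq2, 0 with the compared groups alone, 1 among members with an mRNA of 500 nt or longer, and 0 to 5 as each library was left out. For day 13 against day 10 with miR-125b the count of 1 became 7 with library totals, 0 without the filter, 2 with the newer estimate, 7 with DESeq2, 0 with the groups alone, and 0 to 7 with a library left out. With the replicate block those counts were 6 and 7, and the block changed no other call among the 13 planned comparisons. The share of all genes called rose with the block too. It went from 0.224% to 4.08% for day 10 against day 2 and from 3.53% to 13.4% for day 13 against day 10. For most other fits that share is not given here, so their member counts are not set against it. For day 13 against day 10 in the control the count of 1 became 0 with the groups alone, 0 among longer mRNAs and 0 to 1 with a library left out. DESeq2 called 6 members for day 10 against day 2 in the control and 1 for withdrawal in the control, against 0. The cause of these differences was not tested. With the mitochondrial genome and the 10 most abundant other genes out of the total, the members' share was 12.3%, 13.6%, 13.6% and 13.6% in the control (day 2, day 10, day 13, withdrawal) and 12.4% with miR-125b after withdrawal. Genes near 0 changed sign: at day 13 Rpl15 was 0.0023 with DESeq2's size factors, 0.0051 with library totals, 0.0024 with DESeq2 and -0.057 to 0.059 with a library left out, and Rps12 ranged from -0.050 to 0.066. At day 2 Rpl31 ranged from -0.18 to 0.055, and after withdrawal Rpl35 from -0.020 to 0.059. With 3 libraries a group, the median SE of a member was 0.11.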
